A study of Homo sapiens with 24 samples.

Results

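The genes described here are 56 factors that build ribosomes in the nucleolus. They were chosen by gene symbol from a list of ribosome biogenesis and nucleolar proteins, and all 56 were found among the 23595 genes of each of 4 deposited tables. Their transcripts were measured by sequencing polyadenylated RNA in 24 libraries of 2 human acute myeloid leukaemia cell lines, the monocytic line U937 and the line IMS-M2. IMS-M2 is known to carry a mutated NPM1 gene, whose product leaves the nucleolus for the cytoplasm, and the values do not separate the alleles. Cultures lacked folic acid (-FA) or contained it (+FA) and received either OTX or DMSO, the solvent, which gives 8 groups of 3 libraries: U937 -FA OTX, U937 -FA DMSO, U937 +FA OTX, U937 +FA DMSO, IMS-M2 -FA OTX, IMS-M2 -FA DMSO, IMS-M2 +FA OTX and IMS-M2 +FA DMSO. The labels give only the abbreviation OTX, with no dose or duration. Background knowledge of the study identifies it as birabresib, which blocks BET bromodomain proteins, readers of acetylated chromatin.

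A ribosome starts as a long precursor RNA, made by RNA polymerase I in the nucleolus, which is cut, chemically modified and folded while proteins load onto it. Small nucleolar ribonucleoproteins guide the modifications, box C/D particles for ribose methylation and box H/ACA particles for pseudouridine. A large early particle, the small subunit processome, prepares the small subunit, and separate sets of factors assemble the large subunit and finish the small one. Fast-growing cells, leukaemia cells among them, make many ribosomes, and MYC is known to drive the genes of this pathway.

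MYC with its partner MAX binds the E-box, the letters CACGTG, so the windows around the gene starts were searched for it. RefSeq promoter windows (GRCh38.p14, 300 bases, 250 before the start and 50 after it) were matched by symbol for 47 of the 56 genes. Only the first listed window of each symbol was searched, here and among all genes. A second listed window of GAR1, NPM1, LYAR, DDX21, IMP4, WDR74, PPAN, EBNA1BP2 and GNL3 was not searched. CACGTG, which reads the same on both strands, was found in 17 of these 47 windows (36.2%), in 10.4% of the windows of all tested genes with one and in 7.43% of all 27305 windows. The related letters CACGCG, searched on both strands and free to overlap an E-box, were found in 27.7% of the 47 windows and 18.6% of those of tested genes. The 6 genes below are those with a whole E-box before the start, and in the other 11 it lay across the start or after it. Each is shown with up to 12 bases on either side of the upstream motif nearest to the start, 5′ to 3′ on the gene's strand, with the motif in capitals. NOP10 and UTP20 are shown because the motif lay within 11 bases before the start, and IMP4, EBNA1BP2, UTP14A and UTP18 because it lay further upstream.
NOP10, chr15:34343137-34343159, minus strand: gaaattgacgaaCACGTGacgcg
UTP20, chr12:101280083-101280104, plus strand: cttttttccgtcCACGTGaccc
UTP18, chr17:51260445-51260474, plus strand: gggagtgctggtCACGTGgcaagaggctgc
IMP4, chr2:130342682-130342711, plus strand: gcggtcctaagtCACGTGtgacattctgta
EBNA1BP2, chr1:43172790-43172819, minus strand: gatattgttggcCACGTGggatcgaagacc
UTP14A, chrX:129905914-129905940, plus strand: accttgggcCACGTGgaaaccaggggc
A match describes the letters of a window and does not show that a factor binds there. The 17 genes with the motif had a median log2 change of -1.03 under OTX in U937 with folic acid. The 30 genes without the motif in the searched window had -1.06. Without folic acid these medians were -0.99 and -0.93 in U937. In IMS-M2 they were -0.30 and -0.38 with folic acid and -0.42 and -0.54 without it. The change in U937 less that in IMS-M2 had medians of -0.79 with the motif and -0.58 without it in medium with folic acid, and -0.65 and -0.48 in medium without it, and none of these pairs was tested.

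Values are FPKM, in which fragments are divided by transcript length and by the library's mapped fragments, so a change is relative to the other transcripts of a library, and fewer cells of a type and less RNA per cell cannot be told apart. The depth of the libraries is unknown. From the step size of low values, libraries of 1 table ranged from 0.758 to 1.64 times the depth of that table's first library, and 10418 to 10894 genes reached 1 FPKM. MYC stood at 23.96 ± 1.27 FPKM in OTX libraries and 196 ± 10.1 FPKM in DMSO libraries of U937 with folic acid, a log2 change of -2.98, and at 142 ± 0.748 FPKM in OTX libraries and 197 ± 11.2 FPKM in DMSO libraries of IMS-M2 with folic acid, a log2 change of -0.47 (mean ± SD, n = 3 per group). HEXIM1, a common readout of BET inhibition, rose in all 4 OTX comparisons by 1.24 to 2.31 on the log2 scale. All 9 listed myeloid markers were found, with CD14 below 1 FPKM in every library and MPO and CSF1R in every library of several groups. Their summed level was 801 to 882 FPKM in OTX and 1790 to 2181 FPKM in DMSO libraries of U937 without folic acid, and 576 to 585 FPKM in OTX and 861 to 1029 FPKM in DMSO libraries with it. In IMS-M2 it was 106 to 129 FPKM in OTX and 209 to 229 FPKM in DMSO libraries without folic acid, and 104 to 125 FPKM in OTX and 215 to 235 FPKM in DMSO libraries with it. The myeloid sum was lower with OTX in all 4 comparisons, and its part in the results below was not tested. Its 9 markers did not all move together. Mean CD33, SPI1 and LYZ were lower with OTX in all 4 comparisons, and LYZ weighed most in U937. Mean ITGAM in U937 was higher with OTX, at 15.7 against 9.82 FPKM without folic acid and 11.1 against 4.15 FPKM with it. Mean MPO in U937 was also higher with OTX, at 1.08 against 0.281 FPKM without folic acid and 1.40 against 0.192 FPKM with it, all low values. In IMS-M2 ITGAM and MPO were lower with OTX. CEBPA was higher with OTX in IMS-M2 with folic acid, at 66.9 against 48.2 FPKM, and slightly lower in U937. The keratins KRT8 and KRT18 gave IMS-M2 a summed level of 65.7 to 104 FPKM for 3 epithelial markers with EPCAM below 1 FPKM, against at most 0.153 FPKM in U937. T cell, B cell and stromal marker sums and that of the haemoglobin genes HBB, HBA1 and HBA2 stayed at or below 10.4 FPKM in every library, with HBA1 and HBA2 below 1 FPKM. Deviations from the mean of each line and treatment had a leading axis with 29.3% of the variance, on which 3 libraries stood apart: U937 -FA DMSO column 2, U937 +FA OTX replicate 3 and IMS-M2 +FA DMSO replicate 3. Counts of lower genes and the called folic acid differences are given with and without them. Most OTX changes of single genes are given only with them.

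The first question was what OTX did to these genes in U937. With folic acid 55 of the 56 were lower in OTX than in DMSO libraries and 0 higher, against 27.0% lower and 29.1% higher among all 11194 genes tested. Without folic acid 52 were lower and 0 higher, against 31.7% and 28.0% of all tested genes. The median log2 change of the 56 genes was -1.03 with folic acid and -0.98 without it, while that of all tested genes was 0.02 and -0.02. A log2 change of -1 or lower among the called genes was reached by 30 with folic acid, against 5.02% of all tested genes, and by 26 without it, against 6.19%. Calls are at a Benjamini-Hochberg adjusted p below 0.05 in limma, fitted on log2(FPKM + 1) over all tested genes, and every log2 change below is on that scale, OTX minus DMSO, with its standard error (SE). Every OTX library lay below every DMSO library for 55 genes with folic acid and 52 without it, against 30.4% and 33.7% of all tested genes. Without the 3 libraries that stood apart 55 and 54 genes were lower, and the shares of all tested genes in that fit were not counted.

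In IMS-M2 the median change was smaller, and the difference between the lines is tested below. Without folic acid 46 were lower and 0 higher, against 30.0% and 27.5% of all 11223 tested genes, with a median log2 change of -0.44. With folic acid 32 were lower and 1 was higher, against 33.4% and 29.8% of all tested genes, with a median of -0.30. Of the 56 genes, 3 without folic acid and 4 with it reached a log2 change of -1 or lower. These are close to the shares of all tested genes, 6.18% and 7.85%. Every OTX library lay below every DMSO library for 46 genes without folic acid and 32 with it, against 35.0% and 33.8% of all tested genes. A total of 31 genes were lower in all 4 comparisons, against 11.8% of the 10220 genes tested in both lines, and 51 were lower in both U937 comparisons, against 20.7% of all tested genes. The medians of all tested genes were -0.01 and -0.03. Without the 3 libraries the counts were 48 and 31 lower and 0 higher, again with no share of all tested genes counted.

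**Figure D1:**
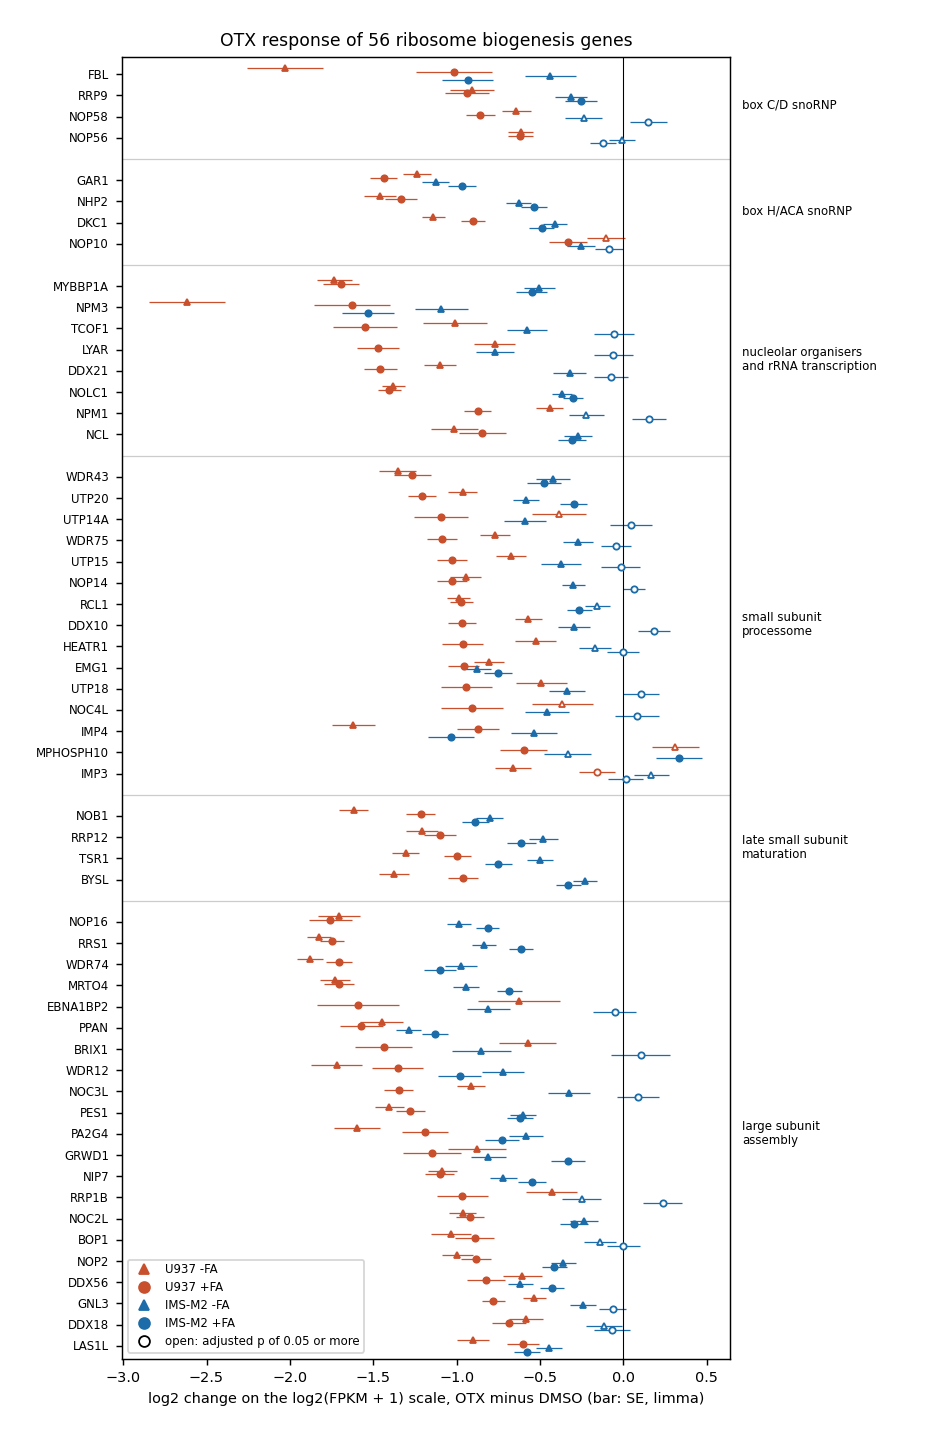
Log2 change on the log2(FPKM + 1) scale, OTX minus DMSO, of each of the 56 genes, grouped by role (points: limma estimate from 3 libraries a group; bars: SE; filled: adjusted p below 0.05). The U937 points lie left of 0 for 56 genes with folic acid and for 55 without it, where MPHOSPH10 is the exception, and the IMS-M2 points lie between -1.53 for NPM3 and 0.34 for MPHOSPH10.

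Summed over the 56 genes, U937 without folic acid held 0.468 ± 0.00945% of the FPKM sum in OTX libraries and 0.856 ± 0.0112% in DMSO libraries (mean ± SD, n = 3 per group). With folic acid the shares were 0.470 ± 0.00585% in OTX and 0.929 ± 0.0411% in DMSO libraries of U937. In IMS-M2 the shares were 0.671 ± 0.0153% in OTX and 0.907 ± 0.0249% in DMSO libraries without folic acid. With folic acid they were 0.713 ± 0.0182% in OTX and 0.856 ± 0.0096% in DMSO libraries of IMS-M2. The OTX libraries lay below the DMSO libraries in all 4 pairs with no overlap. NPM1 had the highest FPKM of the 56 genes in all 8 groups and UTP20 the lowest, so the sum leans on a few abundant genes, while the medians above weigh each gene alike.

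**Figure D2:**
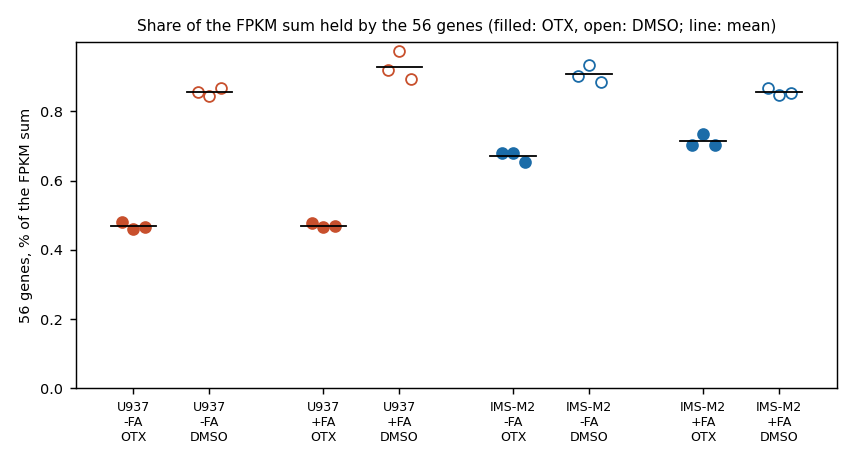
Share of the FPKM sum of each library held by the 56 genes, in percent (1 point per library, filled for OTX and open for DMSO; lines: means of 3). The OTX libraries of U937 lie between 0.461% and 0.479%, those of IMS-M2 between 0.653% and 0.734%, and all DMSO libraries between 0.844% and 0.974%.

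The nucleolar organisers bind precursor RNA, histones or each other, and some of them help RNA polymerase I transcribe. In U937 all 8 fell in both conditions, against 31.7% of all tested genes without folic acid and 27.0% with it. In IMS-M2 7 fell without folic acid and 4 with it, against 30.0% and 33.4%. NPM1 encodes nucleophosmin, a chaperone that gives the outer nucleolus its structure (hg19, chromosome 5, 170814708 to 170837888). It had 516, 549 and 539 FPKM in OTX libraries, against 719, 727 and 734 FPKM in DMSO libraries of U937 without folic acid and 515, 516 and 485 FPKM in OTX libraries, against 869, 1030.1 and 889.8 FPKM in DMSO libraries with it. The groups did not overlap, and NPM1 fell by 0.44 and 0.87 on the log2 scale (adjusted p = 0.000751 and 5.71e-06, limma). In IMS-M2 it had 797, 961 and 777 FPKM in OTX libraries, against 1044, 971 and 931 FPKM in DMSO libraries without folic acid and 884, 1053 and 884 FPKM in OTX libraries, against 812, 884 and 832 FPKM in DMSO libraries with it. These groups overlapped in both conditions, and neither passed the test (log2 -0.22 ± 0.10 and 0.15 ± 0.10, SE). Without IMS-M2 -FA OTX replicate 2, the highest OTX value there, the log2 change was -0.32 and was called (adjusted p = 0.0221, limma).

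NCL encodes nucleolin, which packages precursor RNA (chromosome 2, 232319459 to 232329205), and its introns hold small nucleolar RNA genes that share the locus in the tables. NCL had 226, 201 and 227 FPKM in OTX libraries, against 418, 364 and 564 FPKM in DMSO libraries of U937 without folic acid and 260.4, 233 and 246 FPKM in OTX libraries, against 480.0, 446 and 405 FPKM in DMSO libraries with it. NCL in IMS-M2 had 369, 375 and 336 FPKM in OTX libraries, against 441, 433 and 430.4 FPKM in DMSO libraries without folic acid and 353, 369 and 366 FPKM in OTX libraries, against 417, 432 and 506 FPKM in DMSO libraries with it. No pair overlapped, and the log2 changes were -1.01 ± 0.14, -0.84 ± 0.14, -0.27 ± 0.08 and -0.31 ± 0.08 in that order, all called. The call in IMS-M2 without folic acid was lost without OTX replicate 3 (adjusted p = 0.0651, limma). NPM3, a smaller nucleophosmin relative (chromosome 10, 103541082 to 103543170), had the lowest change of the 56 genes in U937 without folic acid and in IMS-M2 with it. It had 47.9, 39.3 and 43.8 FPKM in OTX libraries, against 257, 193 and 404 FPKM in DMSO libraries of U937 without folic acid and 70.2, 77.1 and 86.5 FPKM in OTX libraries, against 305, 209 and 222 FPKM in DMSO libraries with it. Every OTX value was below every DMSO value, and the fall was 84.7% of the DMSO mean without folic acid and 68.2% with it (log2 -2.62 and -1.63, adjusted p = 2.6e-06 and 0.000101, limma). DMSO column 2 of U937 -FA, 1 of the 3 libraries that stood apart, holds the highest NPM3 value. In IMS-M2 +FA the highest NPM3 value, 256 FPKM, was that of DMSO replicate 3, another of the 3. The NPM3 change without these libraries is not given.

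In IMS-M2, NPM3 averaged 66.9 ± 6.62 FPKM in OTX libraries and 144 ± 12.5 FPKM in DMSO libraries without folic acid (mean ± SD, n = 3 per group), a log2 change of -1.09. With folic acid it averaged 69.2 ± 5.75 FPKM in OTX libraries and 206 ± 53.1 FPKM in DMSO libraries, a log2 change of -1.53. MYBBP1A, a nucleolar partner of MYB, had 10.5, 9.17 and 8.89 FPKM in OTX libraries, against 33.2, 32.5 and 33.1 FPKM in DMSO libraries of U937 with folic acid. It fell by 1.73 and 1.69 on the log2 scale in U937 without and with folic acid, and by 0.50 and 0.55 in IMS-M2. NOLC1, a chaperone of small nucleolar ribonucleoproteins, had 40.5, 39.05 and 39.4 FPKM in OTX libraries, against 102, 109.8 and 108 FPKM in DMSO libraries of U937 with folic acid, and 61.5, 62.1 and 61.5 FPKM in OTX libraries, against 78.8, 76.7 and 73.6 FPKM in DMSO libraries of IMS-M2 with it. The groups were apart in both lines, with log2 changes of -1.40 ± 0.07 and -0.30 ± 0.06 (SE). TCOF1 (treacle), which ties RNA polymerase I transcription to modification, fell by 1.01 in U937 without folic acid and 1.55 with it. DDX21, an RNA helicase of the nucleolus, fell by 1.10 and 1.46. In IMS-M2 both were called without folic acid (log2 -0.58 and -0.32) and not with it (-0.06 and -0.07).

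Among the 4 box C/D proteins, all were lower in both U937 comparisons, and 2 of 4, FBL and RRP9, in both IMS-M2 comparisons, beside the same shares of all tested genes. FBL encodes fibrillarin, the methyltransferase of these particles (chromosome 19, 40325093 to 40337054). It had 156, 119 and 145 FPKM in OTX libraries, against 554, 412 and 819 FPKM in DMSO libraries of U937 without folic acid and 247, 242 and 288 FPKM in OTX libraries, against 673, 435 and 485 FPKM in DMSO libraries with it. FBL in IMS-M2 had 234, 194 and 227 FPKM in OTX libraries, against 317, 269 and 301 FPKM in DMSO libraries without folic acid and 217, 190.1 and 232 FPKM in OTX libraries, against 313, 418 and 511 FPKM in DMSO libraries with it. No OTX library reached a DMSO library of its own table, and the DMSO libraries spread widely, with an SD of 207 FPKM in U937 without folic acid. The highest FBL values of U937 -FA and IMS-M2 +FA were those of DMSO column 2 and DMSO replicate 3, which stood apart. The log2 changes were -2.03 ± 0.23 and -1.01 ± 0.23 in U937 and -0.44 ± 0.15 and -0.93 ± 0.15 in IMS-M2, without and with folic acid. The third of these lost its call without IMS-M2 -FA DMSO replicate 1 (adjusted p = 0.0888), DMSO replicate 3 (0.0660) or OTX replicate 2 (0.0960, limma). The core proteins NOP56 and NOP58 were called in U937 and not in IMS-M2. NOP56 changed by -0.62 and -0.62 in U937, and stood at -0.01 and -0.12 in IMS-M2. NOP58 changed by -0.64 and -0.86 in U937, and stood at -0.24 and 0.15 in IMS-M2. RRP9, a protein of the particle that guides the first cuts of the precursor, had 29.9, 23.7 and 22.7 FPKM in OTX libraries, against 51.8, 47.5 and 48.6 FPKM in DMSO libraries of U937 and 28.2, 23.9 and 26.8 FPKM in OTX libraries, against 32.3, 31.1 and 31.1 FPKM in DMSO libraries of IMS-M2, both with folic acid. The groups did not overlap in either line. It fell by 0.91 without folic acid and 0.94 with it in U937, and by 0.31 and 0.25 in IMS-M2. The first of the IMS-M2 changes was no longer called once DMSO replicate 1 (adjusted p = 0.0635, limma) or OTX replicate 2 (0.0568) was left out, and the second without any library of its table except OTX replicate 1 (0.0554 to 0.129).

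Of the 4 box H/ACA proteins, GAR1, NHP2 and DKC1 were lower in all 4 comparisons, against the 11.8% given above. GAR1, a structural protein of the particle (chromosome 4, 110736666 to 110745893), had 10.5, 10.3 and 10.2 FPKM in OTX libraries, against 26.3, 25.2 and 25.7 FPKM in DMSO libraries of U937 without folic acid and 12.4, 11.2 and 13.9 FPKM in OTX libraries, against 36.5, 32.7 and 37.3 FPKM in DMSO libraries with it. GAR1 in IMS-M2 had 14.99, 16.2 and 14.9 FPKM in OTX libraries, against 35.6, 37.4 and 31.4 FPKM in DMSO libraries without folic acid and 17.5, 16.6 and 16.3 FPKM in OTX libraries, against 31.5, 36.8 and 33.2 FPKM in DMSO libraries with it. The groups were separate in every table, and the log2 changes were -1.24 and -1.44 in U937 and -1.13 and -0.97 in IMS-M2. NHP2, a core protein of the particle, had 78.4, 74.3 and 71.6 FPKM in OTX libraries, against 231, 209.8 and 184 FPKM in DMSO libraries of U937 without folic acid. It fell by 1.46 and 1.33 in U937 and by 0.63 and 0.53 in IMS-M2. DKC1, the pseudouridine synthase itself, fell by 1.14 and 0.90 in U937 and by 0.41 and 0.49 in IMS-M2. NOP10, the smallest subunit, was the exception. It had 281, 305 and 258 FPKM in OTX libraries, against 323, 332 and 256 FPKM in DMSO libraries of U937 without folic acid, where the groups overlapped and the test was not passed (log2 -0.10 ± 0.11), and 267, 247 and 227 FPKM in OTX libraries, against 318, 318 and 296 FPKM in DMSO libraries with it, where they did not overlap. With folic acid NOP10 fell by 0.33 on the log2 scale, a call that was lost without any of 4 single libraries (adjusted p from 0.0581 to 0.0967, limma). In IMS-M2 NOP10 fell without folic acid by 0.25, a call lost without any of 3 single libraries (adjusted p from 0.0581 to 0.0846), and with folic acid it stood at -0.09.

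**Figure D3:**
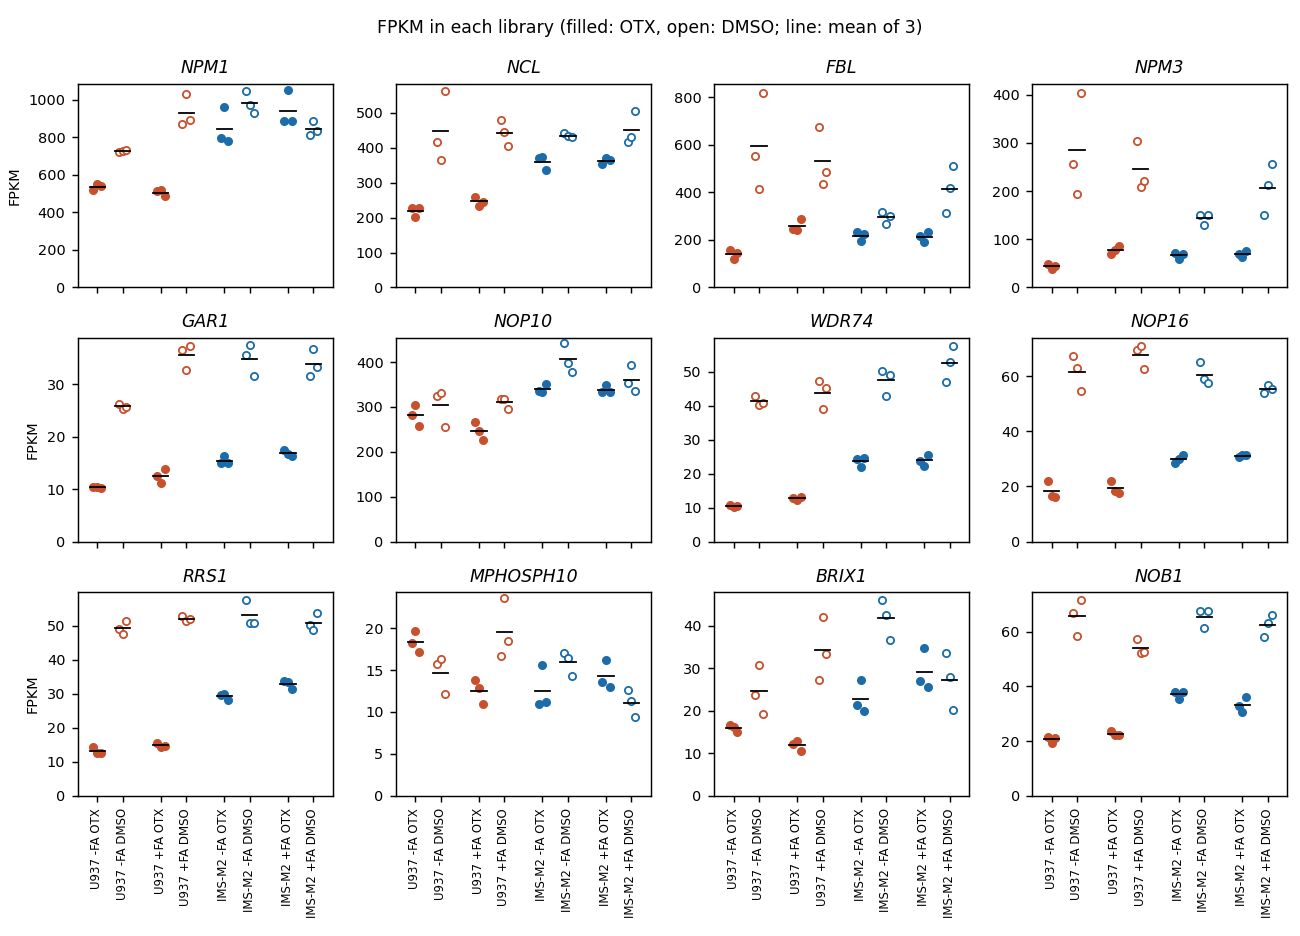
FPKM of 12 of the genes in each of the 24 libraries (points: libraries, filled for OTX and open for DMSO; lines: means of 3; each axis starts at 0). GAR1, WDR74, NOP16, RRS1 and NOB1 are lower in every OTX library than in every DMSO library of the same table, NPM1 is so in U937 but not in IMS-M2, and the OTX libraries of MPHOSPH10 lie above its DMSO libraries in U937 -FA and IMS-M2 +FA.

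In the small subunit processome, with 15 members, 12 fell in U937 without folic acid and 14 with it, against 31.7% and 27.0% of all tested genes. In IMS-M2 11 fell without folic acid, against 30.0% of all tested genes. With folic acid 5 of 15 (33.3%) fell in IMS-M2, which is the share of all tested genes (33.4%). WDR43 belongs to the part of the processome that joins the precursor first in yeast. It had 14.1, 14.6 and 17.5 FPKM in OTX libraries, against 39.9, 38.4 and 44.1 FPKM in DMSO libraries of U937 without folic acid and 15.4, 18.3 and 19.3 FPKM in OTX libraries, against 47.97, 43.9 and 39.7 FPKM in DMSO libraries with it. All OTX values lay below all DMSO values, with log2 changes of -1.35 ± 0.11 and -1.26 ± 0.11, against -0.42 and -0.48 in IMS-M2. EMG1, a methyltransferase of the small subunit RNA, had 19.8, 19.7 and 16.6 FPKM in OTX libraries, against 34.4, 34.05 and 31.6 FPKM in DMSO libraries of U937 and 48.4, 51.3 and 49.2 FPKM in OTX libraries, against 92.6, 87.6 and 96.5 FPKM in DMSO libraries of IMS-M2, both without folic acid. The OTX libraries were below the DMSO libraries in both lines, with log2 changes of -0.81 and -0.88. UTP20, the member with the lowest FPKM, fell by 0.96 and 1.21 in U937 and by 0.58 and 0.30 in IMS-M2, which the pseudocount of 1 FPKM understates at these levels.

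IMP3, IMP4 and MPHOSPH10 form 1 complex that helps pair a guide RNA with the precursor. IMP4 had 48.9, 44.6 and 48.5 FPKM in OTX libraries, against 139.9, 126 and 181 FPKM in DMSO libraries of U937 without folic acid and 67.8, 62.8 and 70.7 FPKM in OTX libraries, against 139.7, 114 and 118 FPKM in DMSO libraries with it. In IMS-M2 it had 64.8, 56.6 and 67.5 FPKM in OTX libraries, against 94.3, 82.9 and 97.7 FPKM in DMSO libraries without folic acid and 63.4, 55.3 and 67.7 FPKM in OTX libraries, against 102, 131 and 155 FPKM in DMSO libraries with it. It fell in all 4, by 1.62 and 0.87 in U937 and by 0.53 and 1.03 in IMS-M2 on the log2 scale. The highest IMP4 values of U937 -FA and IMS-M2 +FA were those of DMSO column 2 and DMSO replicate 3, which stood apart. IMP3 fell in U937 without folic acid (log2 -0.66 ± 0.11), and its other 3 changes were not called, with log2 values of -0.16 in U937 with folic acid and 0.17 and 0.01 in IMS-M2. MPHOSPH10 (chromosome 2, 71357444 to 71377232) had 18.2, 19.7 and 17.2 FPKM in OTX libraries, against 15.7, 16.3 and 12.1 FPKM in DMSO libraries of U937 without folic acid and 13.8, 12.9 and 10.9 FPKM in OTX libraries, against 16.7, 23.6 and 18.5 FPKM in DMSO libraries with it. The OTX libraries were all above the DMSO libraries in the first case, without passing the test (log2 0.31 ± 0.14, adjusted p = 0.0728, limma), and all below them in the second (log2 -0.60 ± 0.14, adjusted p = 0.00347).

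In IMS-M2, MPHOSPH10 had 10.9, 15.6 and 11.1 FPKM in OTX libraries, against 17.00, 16.4 and 14.3 FPKM in DMSO libraries without folic acid and 13.6, 16.2 and 12.96 FPKM in OTX libraries, against 12.7, 11.3 and 9.43 FPKM in DMSO libraries with it. With folic acid it was the only gene of the 56 called higher in any OTX comparison, by 0.34 on the log2 scale at an adjusted p of 0.0498 (limma), and it lost that call without any of IMS-M2 +FA OTX replicates 1 and 2 and DMSO replicates 2 and 3, with adjusted p from 0.0711 to 0.188. The other conditions also turned on single libraries. Without folic acid MPHOSPH10 was called lower in IMS-M2 without DMSO replicate 3 (log2 -0.40, adjusted p = 0.0474) or OTX replicate 2 (-0.49, 0.00632, limma), and higher in U937 without DMSO column 1 (0.39, 0.0483). The other processome members, NOP14, WDR75, UTP14A, UTP15, UTP18, HEATR1, DDX10, RCL1 and NOC4L, had log2 changes of -1.09 to -0.91 in U937 with folic acid, all called. In IMS-M2 with folic acid RCL1 alone of these 9 was called (log2 -0.26), and the other 8 stood between -0.05 and 0.18 without passing the test. In yeast RCL1 acts in a cut of the precursor, DDX10 is a helicase, and HEATR1 and UTP15 also take part in RNA polymerase I transcription.

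All 4 factors of late small subunit maturation were lower in all 4 comparisons, against 11.8% of the genes tested in both lines. NOB1, the nuclease that makes the last cut of the small subunit RNA (chromosome 16, 69775757 to 69788871), had 21.6, 19.5 and 20.98 FPKM in OTX libraries, against 66.8, 58.5 and 71.8 FPKM in DMSO libraries of U937 without folic acid and 23.8, 22.3 and 22.1 FPKM in OTX libraries, against 57.5, 52.2 and 52.7 FPKM in DMSO libraries with it. NOB1 in IMS-M2 had 37.9, 35.6 and 38.01 FPKM in OTX libraries, against 67.6, 61.4 and 67.8 FPKM in DMSO libraries without folic acid and 32.96, 30.8 and 36.2 FPKM in OTX libraries, against 58.1, 63.3 and 66.1 FPKM in DMSO libraries with it. The groups were far apart in each table, and NOB1 fell by 68.5% and 58.0% of the DMSO mean in U937 and by 43.3% and 46.7% in IMS-M2. BYSL (bystin), needed to finish the small subunit, had 13.5, 11.6 and 11.8 FPKM in OTX libraries, against 35.5, 33.5 and 31.4 FPKM in DMSO libraries of U937 without folic acid, and 36.3, 32.9 and 36.5 FPKM in OTX libraries, against 44.00, 40.3 and 40.1 FPKM in DMSO libraries of IMS-M2 without it. Both pairs were separate, but the log2 changes differed in size, -1.38 ± 0.09 in U937 and -0.23 ± 0.07 in IMS-M2, and the call in IMS-M2 was lost without IMS-M2 -FA DMSO replicate 1 (adjusted p = 0.0701) or OTX replicate 2 (0.0748, limma). With folic acid BYSL changed by -0.96 in U937 and -0.33 in IMS-M2. RRP12 and TSR1, which act in export and the last steps of the particle, changed by -1.21 and -1.31 in U937 without folic acid.

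Large subunit assembly held 21 genes. All 21 fell in both U937 comparisons, against 20.7% of all tested genes. Of these, 18 fell in IMS-M2 without folic acid and 14 with it, against 30.0% and 33.4% of all tested genes. WDR74 (chromosome 11, 62600383 to 62607628), an assembly factor of the early large subunit, had 10.8, 10.2 and 10.5 FPKM in OTX libraries, against 42.9, 40.1 and 40.7 FPKM in DMSO libraries of U937 without folic acid and 12.8, 12.3 and 13.02 FPKM in OTX libraries, against 47.4, 39.1 and 45.1 FPKM in DMSO libraries with it. In IMS-M2 it had 24.4, 21.8 and 24.7 FPKM in OTX libraries, against 50.3, 42.99 and 48.96 FPKM in DMSO libraries without folic acid and 23.8, 22.3 and 25.6 FPKM in OTX libraries, against 46.98, 52.9 and 57.5 FPKM in DMSO libraries with it. No OTX library reached a DMSO library. WDR74 fell in U937 by 74.6% and 71.0% of the DMSO mean, and by 50.2% and 54.5% in IMS-M2. NOP16, a nucleolar protein of the early large subunit, had 22.1, 18.2 and 17.7 FPKM in OTX libraries, against 69.4, 70.98 and 62.5 FPKM in DMSO libraries of U937 with folic acid. This was the lowest log2 change of the 56 in that comparison, at -1.76 ± 0.13, against -0.81 ± 0.07 in IMS-M2. RRS1, which brings the small rRNA of the large subunit into the particle, had 14.3, 12.6 and 12.7 FPKM in OTX libraries, against 48.9, 47.6 and 51.4 FPKM in DMSO libraries of U937 without folic acid and 15.5, 14.4 and 14.5 FPKM in OTX libraries, against 52.97, 51.2 and 51.9 FPKM in DMSO libraries with it. In IMS-M2 it averaged 29.2 ± 0.965 FPKM in OTX libraries and 53.03 ± 3.91 FPKM in DMSO libraries without folic acid and 32.9 ± 1.31 FPKM in OTX libraries and 50.8 ± 2.56 FPKM in DMSO libraries with it. RRS1 fell by 1.83 and 1.75 in U937, with an SE of 0.07, and by 0.84 and 0.61 in IMS-M2.

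MRTO4, a relative of a ribosomal stalk protein that holds its place during assembly, had 19.3, 16.5 and 16.6 FPKM in OTX libraries, against 63.7, 62.1 and 55.03 FPKM in DMSO libraries of U937 without folic acid and 22.1, 18.6 and 19.3 FPKM in OTX libraries, against 66.9, 65.9 and 68.96 FPKM in DMSO libraries with it. It fell by 1.73 and 1.70 on the log2 scale in U937 and by 0.94 and 0.68 in IMS-M2. PPAN had the largest fall of the large subunit factors in IMS-M2. It had 14.8, 13.6 and 10.1 FPKM in OTX libraries, against 36.6, 38.3 and 34.4 FPKM in DMSO libraries of U937 without folic acid and 23.97, 23.3 and 23.6 FPKM in OTX libraries, against 64.98, 58.2 and 54.7 FPKM in DMSO libraries of IMS-M2 without it. The log2 changes were -1.45 ± 0.13 in U937 and -1.29 ± 0.08 in IMS-M2. With folic acid PPAN changed by -1.57 in U937 and -1.13 in IMS-M2. PPAN shares its locus in the tables with EIF3G and P2RY11, so reads could have been split between them. PES1, BOP1 and WDR12 form the PeBoW complex, needed to process the large subunit RNA. WDR12 had 12.02, 10.9 and 12.97 FPKM in OTX libraries, against 40.6, 35.9 and 49.3 FPKM in DMSO libraries of U937 without folic acid, with no overlap. PES1 fell by 1.40 and 1.28 in U937 and by 0.60 and 0.62 in IMS-M2, and WDR12 by 1.72 and 1.35 and by 0.72 and 0.98. BOP1 fell in U937 by 1.03 and 0.89, but in IMS-M2 it stood at -0.14 and 0.00 and was not called.

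The other large subunit factors called in IMS-M2 under both conditions were NOP2, an RNA methyltransferase, NIP7, NOC2L, the helicase DDX56, the nuclease subunit LAS1L, the histone and ribosomal protein chaperone GRWD1, and PA2G4. Their log2 changes there ranged from -0.81 for GRWD1 to -0.23 for NOC2L without folic acid. NOC2L had 63.6, 56.7 and 64.5 FPKM in OTX libraries, against 77.3, 68.9 and 71.4 FPKM in DMSO libraries of IMS-M2 without folic acid. It lost that call without IMS-M2 -FA DMSO replicate 1 (adjusted p = 0.111), DMSO replicate 3 (0.0596) or OTX replicate 2 (0.120, limma). NOC3L, EBNA1BP2, BRIX1 and GNL3 (nucleostemin, a GTPase) were called in IMS-M2 without folic acid only, and RRP1B and the helicase DDX18 in neither condition. RRP1B had 33.4, 32.5 and 32.1 FPKM in OTX libraries, against 34.7, 26.6 and 22.7 FPKM in DMSO libraries of IMS-M2 with folic acid, and the groups overlapped. It fell in U937 by 0.43 and 0.97 and stood at -0.25 ± 0.12 and 0.24 ± 0.12 in IMS-M2, with the U937 -FA call lost without any single library other than DMSO column 2 (adjusted p from 0.0623 to 0.116). Without IMS-M2 +FA DMSO replicate 1 the RRP1B change there was 0.40 and was called higher (adjusted p = 0.000907, limma). A total of 15 of the 56 genes share their locus in the tables with another gene, small nucleolar RNAs among them, and strand use in the counting is not stated.

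The next comparison asked whether OTX acted more strongly on these genes in U937 than in IMS-M2, taking the change in U937 less that in IMS-M2. In medium with folic acid 47 of the 56 genes had a lower change in U937 and 0 a higher one, against 22.9% and 27.7% of all 12197 tested genes. Without folic acid 37 had a lower change in U937 and 1, MPHOSPH10, a higher one, against 21.5% and 21.5%. The call of MPHOSPH10 was lost without IMS-M2 -FA OTX replicate 1 (0.56, adjusted p = 0.0503) or U937 -FA DMSO column 2 (0.52, 0.0526, limma). The median difference was -0.75 with folic acid and -0.60 without it, on the log2 scale, and 0.04 and -0.02 over all tested genes. Averaged over both folic acid conditions, an alternative added after seeing the data, 52 genes were lower and 0 higher, against 23.1% and 25.2% of all tested genes, and DDX56, EMG1, MPHOSPH10 and NOP10 were not called. Without the 3 libraries that stood apart, 48 were lower with folic acid and 39 without it, with no share of all tested genes counted.

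Of the 3 genes with the smallest p with folic acid, NOLC1 differed by -1.10 ± 0.08 (adjusted p = 3.06e-10, limma), RRS1 by -1.14 ± 0.09 (4.07e-09) and NOP14 by -1.09 ± 0.11 (5.26e-08). NOP14, which joins the small subunit processome, had 21.6, 18.6 and 18.5 FPKM in OTX libraries, against 38.4, 43.3 and 40.9 FPKM in DMSO libraries of U937, and 27.4, 27.7 and 26.3 FPKM in OTX libraries, against 27.3, 24.5 and 26.03 FPKM in DMSO libraries of IMS-M2, both with folic acid. The U937 groups were far apart, and the IMS-M2 groups overlapped. Without folic acid NOLC1 differed by -1.01 ± 0.08 (1.33e-09), RRS1 by -0.99 ± 0.09 (3.51e-08) and BYSL by -1.15 ± 0.11 (5.18e-08). Averaged over both conditions the lowest differences were those of MYBBP1A at -1.19 ± 0.10, DDX21 at -1.08 ± 0.10, RRS1 at -1.06 ± 0.07 and NOLC1 at -1.06 ± 0.05 (SE). The 7 genes lower in both U937 comparisons and in neither IMS-M2 comparison were NOP56, NOP58, NPM1, HEATR1, BOP1, RRP1B and DDX18. Their averaged differences ran from -0.54 ± 0.11 for DDX18 to -0.89 ± 0.11 for BOP1, and all 7 were called. The 7 genes were picked by calls in the same libraries, so these calls are no separate result. The share of all tested genes with that pattern was not counted. GAR1, PPAN and NOB1, which fell in both lines, still differed by -0.29 ± 0.08, -0.30 ± 0.11 and -0.57 ± 0.08. EMG1, at -0.07 ± 0.08, did not pass the test.

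**Figure D4:**
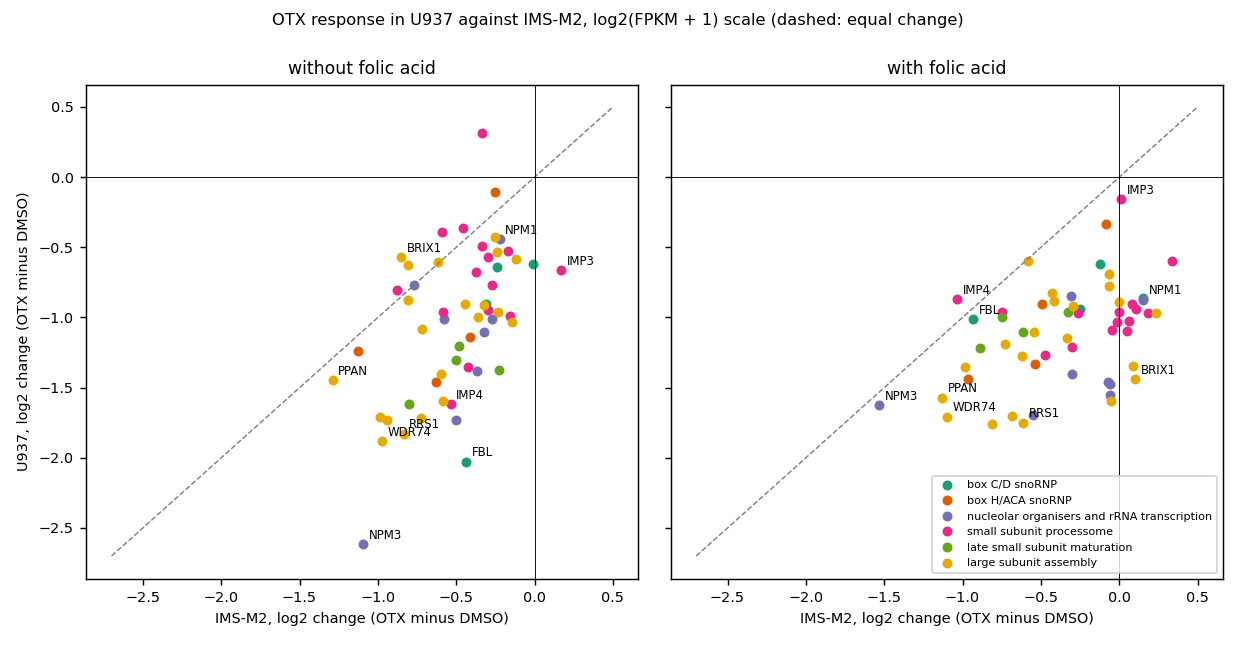
OTX minus DMSO log2 change in U937 (y axis) against that in IMS-M2 (x axis) for the 56 genes, without folic acid on the left and with it on the right (points coloured by role; dashed line: equal change). Below the dashed line, where the change is lower in U937, lie 48 genes without folic acid and 55 with it.

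Across the 56 genes the changes in the lines were moderately correlated, with Pearson's r of 0.515 without folic acid and 0.434 with it (Spearman's rho 0.491 and 0.393). Within U937 the -FA and +FA changes had r = 0.621 and within IMS-M2 r = 0.667. These are correlations across genes, which are not independent replicates. MYC itself fell by 3.08 and 2.98 in U937 and by 0.62 and 0.47 in IMS-M2, so it differed between the lines in the same direction as the 56 genes, and its part in their change was not tested.

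The series was made, by its title, to see how withdrawing folic acid alters the effect of OTX, here the -FA change less the +FA change. In IMS-M2, 4 of the 56 genes had a lower change without folic acid and 0 a higher one, against 3.61% and 3.33% of all tested genes. In U937 0 had a lower change and 1, MPHOSPH10, a higher one, against 1.27% and 0.741%. At an unadjusted p below 0.05 there were 20 genes in IMS-M2 and 23 in U937, against 30.1% and 33.9% of all tested genes in either direction. BRIX1, an early large subunit factor (chromosome 5, 34915820 to 34925787), had 21.3, 27.3 and 19.9 FPKM in OTX libraries, against 46.1, 42.5 and 36.7 FPKM in DMSO libraries of IMS-M2 without folic acid, and 26.96, 34.7 and 25.6 FPKM in OTX libraries, against 33.6, 28.1 and 20.3 FPKM in DMSO libraries of IMS-M2 with it. It fell without folic acid and overlapped with it, a difference of -0.95 ± 0.25 (SE, adjusted p = 0.0413, limma). EBNA1BP2, also of the large subunit, had 45.8, 52.2 and 44.7 FPKM in OTX libraries, against 91.6, 83.4 and 77.4 FPKM in DMSO libraries of IMS-M2 without folic acid, and 57.1, 61.3 and 51.7 FPKM in OTX libraries, against 70.02, 61.1 and 47.03 FPKM in DMSO libraries of IMS-M2 with it. The pattern was that of BRIX1, with a difference of -0.76 ± 0.18 (adjusted p = 0.0365).

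LYAR, a nucleolar zinc finger protein, had 15.5, 18.8 and 14.6 FPKM in OTX libraries, against 32.1, 28.2 and 25.1 FPKM in DMSO libraries of IMS-M2 without folic acid, and 17.9, 20.2 and 18.5 FPKM in OTX libraries, against 22.3, 18.9 and 18.04 FPKM in DMSO libraries of IMS-M2 with it, a difference of -0.71 ± 0.16 (adjusted p = 0.0313, limma). NOP14, with values of 24.97, 27.7 and 25.1 FPKM in OTX libraries, against 32.6, 31.7 and 31.9 FPKM in DMSO libraries of IMS-M2 without folic acid, differed by -0.36 ± 0.10 (adjusted p = 0.0432). Each of these calls was lost in 9 or 10 of the 12 fits that left out 1 library (adjusted p from 0.0502 to 0.128), and none of the 4 was called without the 3 libraries that stood apart (adjusted p from 0.0581 to 0.0835). The differences then stood at -0.76 for BRIX1, -0.60 for EBNA1BP2, -0.65 for LYAR and -0.37 for NOP14. Of the 3 libraries only IMS-M2 +FA DMSO replicate 3 belongs to this line, so these values repeat the fit that left it out alone. It holds the lowest BRIX1, EBNA1BP2 and LYAR value of its group. In U937 the differences of BRIX1, EBNA1BP2 and LYAR had the opposite sign, and none was called. LYAR had 21.6, 21.4 and 20.1 FPKM in OTX libraries, against 35.6, 39.8 and 34.6 FPKM in DMSO libraries of U937 without folic acid, and 18.4, 15.9 and 16.05 FPKM in OTX libraries, against 39.1, 58.4 and 48.9 FPKM in DMSO libraries of U937 with it, a difference of 0.70 ± 0.18 that missed the threshold (adjusted p = 0.0536, limma). It was called without U937 +FA DMSO replicate 1 (0.85, adjusted p = 0.0222) or U937 -FA DMSO column 1 (0.76, 0.0240). BRIX1 had 16.6, 16.1 and 15.1 FPKM in OTX libraries, against 23.6, 30.8 and 19.3 FPKM in DMSO libraries of U937 without folic acid, and 12.1, 12.97 and 10.5 FPKM in OTX libraries, against 27.2, 42.01 and 33.4 FPKM in DMSO libraries of U937 with it, a difference of 0.87 ± 0.24 (adjusted p = 0.0585). EBNA1BP2 had 44.2, 44.7 and 39.1 FPKM in OTX libraries, against 80.6, 87.1 and 41.5 FPKM in DMSO libraries of U937 without folic acid, where DMSO column 2 lay among the OTX libraries and the call was lost without any single library other than that one (adjusted p from 0.0780 to 0.154, limma), and 45.4, 35.9 and 29.9 FPKM in OTX libraries, against 95.4, 131 and 113 FPKM in DMSO libraries with it. Its difference was 0.97 ± 0.35 (adjusted p = 0.0884). MPHOSPH10 had the difference that was called in U937, 0.91 ± 0.20 (adjusted p = 0.0467), and it was lost without the 3 libraries (0.70, adjusted p = 0.133) and in 10 of the 12 fits that left out 1 library (adjusted p from 0.0563 to 0.148). IMP4 had a difference of the other sign, -0.75 ± 0.18 in U937 (adjusted p = 0.0518), called without the same DMSO libraries as LYAR (-0.84, adjusted p = 0.0233, and -0.86, 0.0209, limma).

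Genes with a lower difference in IMS-M2 tended to have a higher one in U937. Pearson's r between the IMS-M2 and the U937 difference was -0.933 (Spearman's rho -0.917), and 51 of 56 genes (91.1%) had opposite signs, against r = -0.636 and 77.3% over the 10220 genes tested in both lines. The genes of a line share its libraries, and the lines share none. The members' GC content had r = 0.330 with the difference in IMS-M2 and -0.407 with that in U937, and transcript length -0.0751 and 0.174, as a description. Over the tested genes with a matched transcript these were 0.0564 and -0.115 for GC content and 0.151 and -0.0806 for length. The 3 libraries that stood apart lie in both lines, and without them 0 of the 56 genes were called in either line. Their axis pooled both folic acid conditions, so it can hold part of a folic acid difference. Leaving them out therefore cannot tell such a difference from the spread of these libraries. Without these libraries r was -0.852 and 43 genes (76.8%) had opposite signs, against r = -0.445 and 69.6% over the 10207 genes then tested in both lines.

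**Figure D5:**
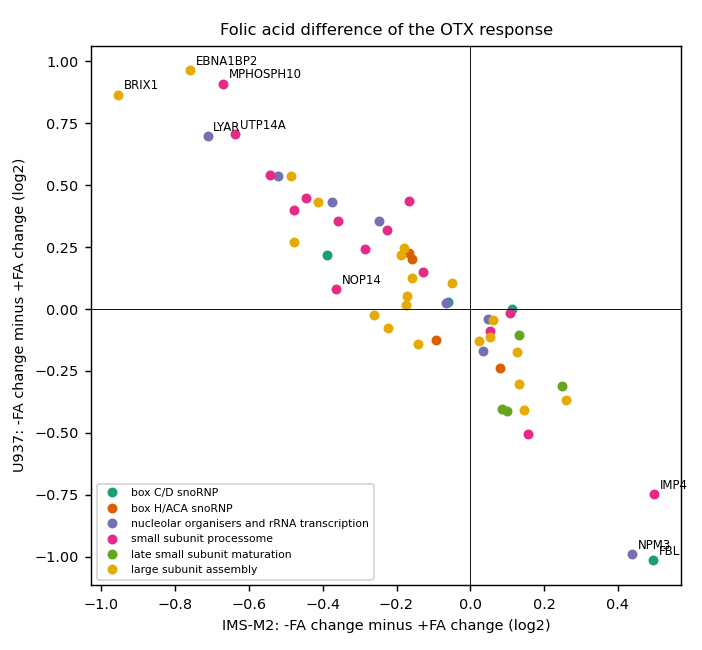
Difference of the OTX response, -FA change minus +FA change on the log2 scale, in U937 (y axis) against IMS-M2 (x axis) for the 56 genes (points coloured by role). The points run from BRIX1, at -0.95 in IMS-M2, to IMP4, at 0.50, with opposite signs in 51 of 56 genes.

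Levels in DMSO alone come from tables that may have been normalised separately, so they are given without a test. In U937 the DMSO mean was lower without folic acid than with it for 39 of the 56 genes, with a median log2 difference of -0.09, and lower for 41.7% of all genes. In IMS-M2 it was lower without folic acid for 22 genes and higher for 34, with a median of 0.07, and lower for 53.0% of all genes. The extremes were EBNA1BP2 at -0.69 and NOB1 at 0.27 in U937, and NPM3 at -0.52 and BRIX1 at 0.60 in IMS-M2. Between the lines, 18 of 56 genes stood lower in U937 than in IMS-M2 with folic acid and 30 without it, against 51.2% and 49.1% of all genes, with LYAR at 1.26 and EMG1 at -1.22 on the log2 scale with folic acid.

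Other factors of the pathway were taken from 2 lists chosen with earlier results of these data known. Of 105 other ribosome biogenesis factors 96 were in the tables and all 96 were tested. In U937, 66 fell and 2 rose without folic acid, against 31.7% lower and 28.0% higher among all tested genes, and 81 fell and 1 rose with it, against 27.0% and 29.1%. In IMS-M2, 51 fell and 3 rose without folic acid, against 30.0% and 27.5%, and 42 (43.8%) fell and 14 (14.6%) rose with it, against 33.4% and 29.8%. CCDC86, a nucleolar protein, averaged 2.54 ± 0.670 FPKM in OTX libraries and 20.5 ± 4.90 FPKM in DMSO libraries of U937 with folic acid, a log2 change of -2.60 ± 0.22 and the lowest of the list. NLE1, a large subunit factor, fell by 1.33 in U937 and 1.14 in IMS-M2 with folic acid. NOL7, at 0.75, and RPF1, at 0.74, rose in IMS-M2 with folic acid. Of 15 genes of the RNA polymerase I machinery, 7 fell and 2 rose in U937 without folic acid and 12 fell and 1 rose with it, while in IMS-M2 10 fell and 2 rose without folic acid and 8 fell and 3 rose with it, beside the same shares of all tested genes. Their 7 of 15 in U937 without folic acid (46.7%) stands against 31.7%, and 8 of 15 in IMS-M2 with folic acid (53.3%) against 33.4%. POLR1B, the second largest subunit of the polymerase, fell in all 4, by 1.38 and 1.10 in U937 and by 0.56 and 0.79 in IMS-M2. TAF1B, a promoter selectivity factor of the polymerase, rose in all 4, by 0.44 and 0.35 in U937 and by 0.31 and 0.55 in IMS-M2.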

How the data were processed

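Polyadenylated RNA of 24 libraries was sequenced with a stranded kit, per the labels' protocols. Per the submitters' processing notes, the tools were bcl2fastq 2.17.1.14, TopHat2 2.1.1 and Cuffdiff 2.2.1 with the hg19 build, in roles and with an annotation not given in the sources used here. The authors deposited FPKM values, 1 table for each line and folic acid condition. FPKM carries no counts, so the depth is unknown and no counting interval is given. Since the tables may have been normalised separately, tests use changes within a table.

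Genes whose mean reached 1 FPKM in 1 group or more were tested on log2(FPKM + 1) with limma 3.58.1 in R 4.3.3, on group means with a trended empirical Bayes variance, over the 12 libraries of a line or, for differences between lines, all 24. P-values were adjusted by Benjamini-Hochberg over all tested genes and called below 0.05. This scale understates changes of low genes. The fit was tested on simulated data. The labels name no separate cultures, so p-values measure only the spread between these libraries, which may be technical.

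The members and gene lists were chosen with earlier results of these data known. Values in every library are given for NPM1, NCL, FBL, the largest change of each role group and line, the 5 lowest and 2 highest called genes of each OTX comparison and the 3 smallest p-values of each difference of changes. A marker gene of the lists is not reported here. For a gene given in fewer than 4 tables the others appear as changes or only in the plot of all 56 genes. Libraries of U937 without folic acid are named by the column number of their table, since the labels do not give those numbers. Numbers were taken to pair OTX and DMSO libraries where the deviations of every same-numbered pair correlated above 0.1, which held in that table alone (0.181, 0.194 and 0.326), where a block by number gave 53 lower genes. The share of all tested genes lower with that block was not counted. The fits reported above used no block, so the results of U937 -FA there are unpaired.

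Alternatives were other pseudocounts, filters, scaling, variance models, fits per table, a replicate block and leaving out each library. Leaving out 3 libraries, averaging over folic acid and the block by column number in U937 -FA were chosen after seeing the data.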

Additional observations from a re-analysis of the deposited data

Results flagged for a closer look

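Differences between groups in the response to OTX were flagged where the test of the difference itself was passed (limma, adjusted over all tested genes). Between U937 and IMS-M2 the change differed for 47 of the 56 genes with folic acid, all lower in U937. Among all tested genes 22.9% were lower and 27.7% higher. Without folic acid it differed for 38 genes, 37 lower and 1 higher, against 21.5% and 21.5%. The 47 genes included RRS1 at -1.14, NOLC1 at -1.10 and NOP14 at -1.09 on the log2 scale, U937 minus IMS-M2. The 38 genes included BYSL at -1.15, NOLC1 at -1.01 and RRS1 at -0.99.

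Between the folic acid conditions 4 genes (7.14%) differed in IMS-M2, all lower, against 3.61% lower and 3.33% higher among all tested genes. Among them were BRIX1 at -0.95, EBNA1BP2 at -0.76 and LYAR at -0.71, -FA change minus +FA change. In U937 1 gene (1.79%) differed, MPHOSPH10 at 0.91, against 1.27% lower and 0.741% higher among all tested genes. Without the 3 libraries that stood apart 0 of the 56 genes passed the test in either line, with BRIX1 at -0.76, EBNA1BP2 at -0.60, LYAR at -0.65, NOP14 at -0.37 and MPHOSPH10 at 0.70. Those libraries were picked on an axis that pooled both folic acid conditions, so this does not decide whether the differences are real.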

How the results depend on the processing

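The counts of lower genes in the 4 OTX comparisons and both line differences stayed within 1.5 times the values given, under all alternatives run. Leaving out 1 library gave 31 to 32 lower genes in IMS-M2 +FA, 38 to 44 in IMS-M2 -FA, 54 to 55 in U937 +FA and 49 to 54 in U937 -FA. Shares of all tested genes were not counted in any fit that left out libraries. A pseudocount of 5 FPKM brought the medians to -0.87 in U937 +FA, -0.84 in U937 -FA, -0.61 for the line difference with folic acid and -0.53 without it. The single higher gene of IMS-M2 +FA, MPHOSPH10, became 0 with a pseudocount of 5 FPKM, no filter, median-ratio scaling, no variance trend or without the 3 libraries that stood apart, and leaving out 1 library gave 0 to 3. Leaving out 1 library gave 0 to 1 higher genes in U937 -FA and in the line difference without folic acid, and IMS-M2 -FA had 1 when each table was fitted alone. Averaging the line difference over folic acid gave a median of -0.66 and 0 higher genes, with MPHOSPH10 at -0.14 against 0.65.

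The folic acid differences depended most on the processing. In IMS-M2 the 4 lower genes became 1 with no filter, 2 with median-ratio scaling and 0 without the 3 libraries, and leaving out 1 library gave 0 to 14 lower and 0 to 7 higher. In U937 the 1 higher gene became 0 with a pseudocount of 0.1 FPKM, no filter or without the 3 libraries, a pseudocount of 5 FPKM gave 1 lower gene, and leaving out 1 library gave 0 to 13 higher and 0 to 7 lower. In IMS-M2 +FA, leaving out 1 library moved BRIX1 between -0.088 and 0.26, EBNA1BP2 between -0.21 and 0.075 and LYAR between -0.12 and 0.027, none called, and BRIX1 stood at -0.088 without the 3 libraries. The cause was not tested.

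With the replicate number as a block, 32 genes were lower in IMS-M2 +FA, 49 in IMS-M2 -FA and 55 in U937 +FA. The folic acid difference in IMS-M2 then had 12 lower and 1 higher gene and that in U937 0 higher. How many of all tested genes were called with the block was not counted, so these counts have no background. Same-number correlations were 0.0534, 0.275 and 0.0746 in IMS-M2 +FA, 0.0732, 0.211 and 0.185 in IMS-M2 -FA and -0.332, 0.126 and -0.235 in U937 +FA. At least 1 pair of each table stayed at or below 0.1, so the block was not taken as the design, although all pairs of both IMS-M2 tables were positive and in IMS-M2 -FA every library correlated best with its own number.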
